A study of Mus musculus with 4 samples.

Results

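Interferon-stimulated genes are the genes that cells switch on after sensing interferon, and 40 of them, given by symbol, were followed here among the 15906 genes listed in 3 deposited tables. All 40 were listed for CD137+ cells, and 39 were listed in each of the other tables, where Mx1 was the gene not listed. The genes were matched by symbol and no expression value entered the match, but the list was chosen with earlier results of these data known. They were read as 8 groups by what their proteins do: transcriptional regulators, RNA and DNA sensors, the ISG15 and ubiquitin system, IFIT proteins, the OAS family, nucleotide and membrane antiviral factors, interferon-inducible GTPases, and other induced genes.

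The cells were adipose progenitors of C57BL/6 mice, sorted with magnetic beads from SAT or VAT, the depots as the labels abbreviate them, for the surface receptor CD137 (gene Tnfrsf9) or PDGFRα (CD140, gene Pdgfra). They were grown, put through an adipogenic cocktail and then given dexamethasone (DEX, a synthetic glucocorticoid) at 1 µM or PBS, the vehicle. The 4 groups, with 1 sample each, were CD137+ cells with DEX, CD137+ cells with PBS, PDGFRα+ cells with DEX and PDGFRα+ cells with PBS. All groups shared the strain, the sorting method (magnetic beads) and the cocktail, while the receptor sorted for differed between the cell types. The labels do not say which depot a library came from or how many animals were pooled. The sources used here give no age or sex of the mice, no composition of the cocktail and no length of the treatment. Gene levels were deposited as FPKM (mapped fragments per kilobase, scaled to the size of the library), a level per length that can be compared between genes. Each of the 3 tables held 2 FPKM columns: DEX and PBS for CD137+ cells, DEX and PBS for PDGFRα+ cells, and, in what is called the between-type table, PDGFRα+ DEX and CD137+ DEX. The 6 columns held 6 different sets of values, so each DEX label stands for a pair of libraries, and they were kept apart.

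Interferons bind receptors at the cell surface, and the receptor of the type I interferons, a pair of Ifnar1 and Ifnar2, activates the kinases JAK1 and TYK2. These phosphorylate STAT proteins such as STAT2, which joins IRF9 in a complex called ISGF3 that binds a DNA element named the interferon-stimulated response element (ISRE) beside its target genes; interferon gamma acts through the gamma-activated site (GAS). Many cells, fibroblasts among them, keep a low level of the targets without infection, and glucocorticoids are known to restrain interferon-induced transcription in macrophages.

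The ISRE stands in several of the promoters, and the stretches are shown because the genes they belong to include Isg15, the gene with the largest difference in CD137+ cells, the near-identical pair Ifit3 and Ifit3b, and Bst2. Each is the 250 bases before the annotated start, 5′ to 3′ on the gene's strand, from RefSeq on GRCm38.p6, with ISRE matches in capitals. The Isg15 stretch is chr4:156200819-156201068 on the minus strand, Ifit1 chr19:34640639-34640888 on the plus strand, Ifit3 chr19:34583279-34583528 on the plus strand, Ifit3b chr19:34607707-34607956 on the plus strand and Bst2 chr8:71537473-71537722 on the minus strand.
Isg15: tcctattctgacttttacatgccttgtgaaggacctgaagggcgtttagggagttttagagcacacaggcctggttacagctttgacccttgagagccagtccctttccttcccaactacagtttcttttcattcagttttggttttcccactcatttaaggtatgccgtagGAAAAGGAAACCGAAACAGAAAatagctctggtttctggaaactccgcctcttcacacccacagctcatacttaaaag
Ifit1: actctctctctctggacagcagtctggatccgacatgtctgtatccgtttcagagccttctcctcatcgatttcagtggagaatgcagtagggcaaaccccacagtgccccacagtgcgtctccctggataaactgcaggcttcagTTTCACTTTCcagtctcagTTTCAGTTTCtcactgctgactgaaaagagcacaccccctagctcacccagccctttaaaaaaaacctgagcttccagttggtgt
Ifit3: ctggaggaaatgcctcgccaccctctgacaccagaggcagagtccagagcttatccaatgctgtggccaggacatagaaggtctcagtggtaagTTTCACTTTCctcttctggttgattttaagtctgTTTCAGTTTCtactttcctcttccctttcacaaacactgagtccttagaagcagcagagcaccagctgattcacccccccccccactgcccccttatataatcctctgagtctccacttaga
Ifit3b: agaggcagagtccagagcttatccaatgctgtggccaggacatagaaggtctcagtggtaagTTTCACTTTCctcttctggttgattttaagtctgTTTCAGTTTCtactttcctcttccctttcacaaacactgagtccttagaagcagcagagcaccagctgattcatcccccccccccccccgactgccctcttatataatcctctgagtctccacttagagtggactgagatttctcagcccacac
Bst2: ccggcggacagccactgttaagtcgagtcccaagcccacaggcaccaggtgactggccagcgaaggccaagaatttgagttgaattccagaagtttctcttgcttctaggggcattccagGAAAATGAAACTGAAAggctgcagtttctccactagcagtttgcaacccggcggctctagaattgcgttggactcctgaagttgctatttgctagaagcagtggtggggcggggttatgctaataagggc

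The motif searched as the ISRE was GAAA, any 2 bases and GAAA again, on both strands, so that matches on the other strand read TTTC, 2 bases and TTTC. RefSeq windows from 250 bases before to 50 after the start were found for 30 of the 40 genes, 34 windows in all. A gene with several windows was counted when any of them held a match. Of those 30 genes, 15 held a match (50% of them), against 1079 of 27025 genes of the whole promoter table (3.99%). The 15 genes were Stat2, Ifih1, Ddx58, Eif2ak2, Isg15, Ifit1, Ifit3, Ifit3b, Oas1a, Rsad2, Bst2, Ifitm3, Gbp2, Gbp3 and Igtp. They held 24 matches, 12 on each strand, with 19 before the start and 5 after it, and 8 genes had at least 2. In Isg15 the 3 matches overlapped in 1 run of 22 bases from position -78, counted from the start, and in Bst2 a pair overlapped in 16 bases from position -130. The windows of Ifit3 and Ifit3b shared an identical run of 169 bases that holds both of their matches. The GAS was searched as TTCNNNGAA, which is its own reverse complement, and stood in windows of 9 of the 30 genes (30%) against 2582 of 27025 genes (9.55%). It overlapped an ISRE match in Bst2 and in Ifitm3. A match describes letters in a window and is not evidence that a factor bound there.

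**Figure D1:**
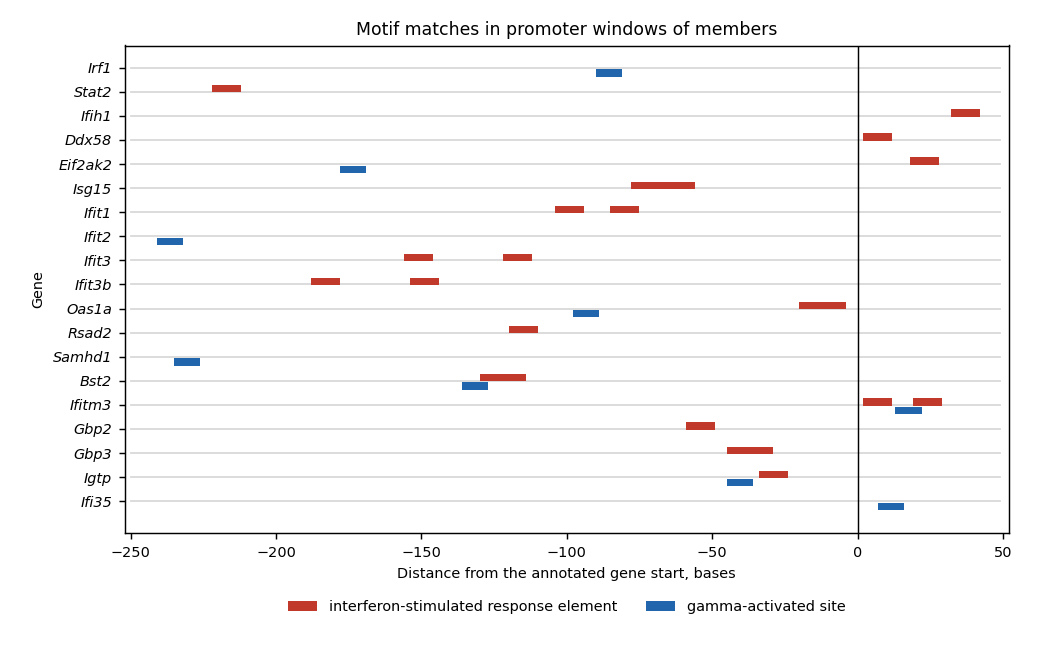
Matches to the ISRE (red) and the GAS (blue) in the promoter windows of the 19 genes with at least 1 match; the x axis is the distance in bases from the annotated gene start (vertical line) and each row is a gene. Of the 24 ISRE matches 19 lie before the start, the farthest, in Stat2, beginning at -222.

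Before the members are described, the labels were set against genes that glucocorticoids are known to induce. Tsc22d3 (GILZ), a classical glucocorticoid target, stood at 38.5 FPKM in CD137+ DEX and 76.1 FPKM in CD137+ PBS cells, and at 30.2 FPKM in PDGFRα+ DEX and 113 FPKM in PDGFRα+ PBS cells. In the between-type table it stood at 122 FPKM in PDGFRα+ DEX and 28.7 FPKM in CD137+ DEX cells. For Tsc22d3 both DEX-PBS tables thus had the lower level under the DEX label, against the known direction. The list of 9 glucocorticoid-induced genes was mixed: it summed to 498 FPKM in DEX and 390 FPKM in PBS CD137+ cells. In PDGFRα+ cells it summed to 290 FPKM in DEX and 473 FPKM in PBS cells. Because of this, "DEX" below means the library labelled DEX. Of these 9 genes, 1 was higher and 1 lower by 2-fold in CD137+ cells, where 0.407% of all genes were higher and 0.659% lower. In PDGFRα+ cells none of the 9 was higher and 6 were lower, where 9.38% of all genes were higher and 11.7% lower. The receptor itself, Nr3c1, was at 24.2 FPKM in DEX and 25.7 FPKM in PBS CD137+ cells, and at 17.6 FPKM in DEX and 30.5 FPKM in PBS PDGFRα+ cells. The between-type PDGFRα+ DEX library was close to the PDGFRα+ PBS library: of 12450 genes measured in both, 7 stood 2-fold higher (0.0562%) and 14 lower (0.112%). Pdgfra was at 57.9 to 164 FPKM in all 6 libraries, and Tnfrsf9 had no entry among the CD137+ DEX-PBS genes and 0.161 FPKM in the between-type CD137+ DEX library, against 1.62 to 4.81 FPKM in PDGFRα+ libraries. The CD137 transcript was thus not higher in the libraries labelled CD137+.

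The labels give 1 sample per group, and columns that share a DEX label were not taken for replicates, since the sources used here do not say that they are. No test between groups was therefore made. A gene was counted as measured in a pair of libraries at 1 FPKM or more in the higher one. Its difference is log2(FPKM + 1) in the first-named library minus the other, which understates differences of low genes, relative to the median difference of all genes at 1 FPKM or more in both. That median was 0.05 in CD137+ cells, 0.24 in PDGFRα+ cells and -0.22 in the between-type table. "Higher" and "lower" as counts mean a 2-fold difference or more on that scale. In bulk RNA, fewer cells holding a transcript and less of it per cell cannot be told apart.

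The 39 genes listed in every table were above 0 FPKM in all 6 libraries, and their levels differed widely between libraries. In the CD137+ table the summed level of the 40 genes was 3006 FPKM in DEX (0.669% of all FPKM) and 2372 FPKM in PBS cells (0.5501%). In the PDGFRα+ table the sum, without Mx1, was 902 FPKM in DEX (0.209%) and 1292 FPKM in PBS cells (0.298%). In the between-type table, again without Mx1, it was 1343 FPKM in PDGFRα+ DEX (0.299%) and 716 FPKM in CD137+ DEX cells (0.166%), so the libraries labelled CD137+ DEX were the highest and the lowest of the 6. Of the 39 genes listed everywhere, 35 had their highest level in the CD137+ DEX library of its own table. Irf1, Stat2 and Ifi27 were highest in CD137+ PBS cells and Samhd1 in PDGFRα+ PBS cells. The lowest level of 33 genes was in the between-type CD137+ DEX library, while Trim25, Ifitm3 and Lgals3bp were lowest in PDGFRα+ DEX cells and Ifit2, Ifit3b and Cmpk2 in PDGFRα+ PBS cells. Both libraries of the CD137+ table lay above all 3 PDGFRα+ libraries for 37 of the 39 genes, the exceptions being Ifit2 and Samhd1. Levels set across tables are approximate, since the tables were made separately.

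**Figure D2:**
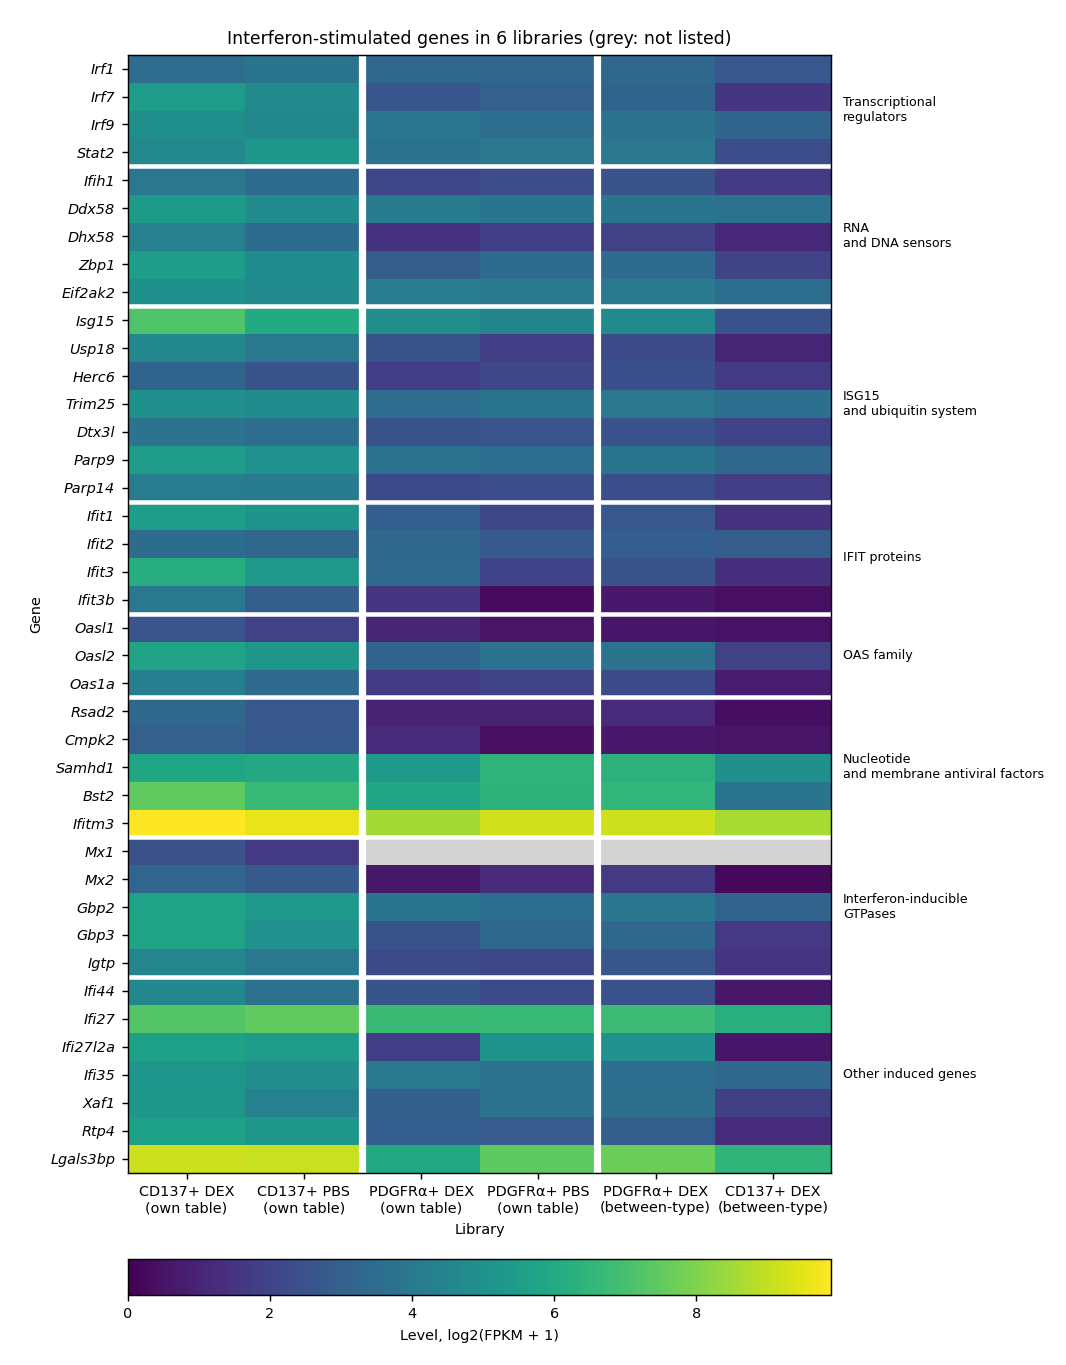
Level of each of the 40 genes, as log2(FPKM + 1) by colour, in the 6 libraries (columns, grouped by table) with genes in rows ordered by role; grey marks Mx1 where it was not listed. The left pair of columns, from the CD137+ table, is brightest for most genes and the last column, the between-type CD137+ DEX library, is darkest for 33 of 39.

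In CD137+ cells the genes were mostly a little higher under the DEX label. The differences were above 0 for 36 of 40 genes, with a median of 0.39, against -0.00064 over all 12298 genes measured. Isg15 was the 1 gene of the 40 past 2-fold, and no gene was 2-fold lower, where 0.407% of all genes were 2-fold higher and 0.659% lower. The 4 genes below 0 were Stat2 at -0.65, Irf1 at -0.34, Ifi27 at -0.26 and Samhd1 at -0.17. In the authors' deposited table, 15 of the 40 genes had a q-value under 0.05 in the higher direction, against 1.8% of its 14208 genes, and Stat2 had 1 in the lower direction, against 1.91%. How many libraries those q-values rest on is not stated. The 15 were Irf7, Ddx58, Dhx58, Zbp1, Isg15, Parp9, Ifit3, Ifit3b, Oasl2, Oas1a, Bst2, Mx1, Gbp3, Ifi44 and Xaf1.

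In PDGFRα+ cells the genes went different ways. Of 38 measured, 11 were above 0 and 27 below it, with a median of -0.26, against 0.01 over all 13174 genes measured. Ifit3 and Ifit3b were 2-fold higher, where 9.38% of all genes were, and Samhd1, Ifi27l2a and Lgals3bp were 2-fold lower, where 11.7% were, so both shares were near or below the background. Without the adjustment for the median of all genes, 19 of the 38 genes lay above 0 and 19 below; the 8 whose sign turned were Irf1, Ddx58, Eif2ak2, Parp9, Gbp2, Igtp, Ifi27 and Rtp4. Over all genes the count was 1236 higher and 1538 lower with the adjustment, and 2049 higher and 1015 lower as deposited. In the authors' deposited table, Ifit3b had a q-value under 0.05 in the higher direction, where 9.37% of 15009 genes did, and Ifi27l2a, Lgals3bp and Samhd1 in the lower direction, where 5.63% did.

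The 2 DEX-PBS tables hold different libraries, and 38 genes were measured in both. Of these, 23 were above 0 in CD137+ cells and below 0 in PDGFRα+ cells, and none the other way round. Another 11 were above 0 in both: Irf9, Isg15, Usp18, all 4 IFIT genes, Oasl1, Cmpk2, Ifi44 and Ifi35. Irf1, Stat2, Samhd1 and Ifi27 were below 0 in both. These counts depend on the adjustment: as deposited, 17 genes were above 0 in CD137+ and below 0 in PDGFRα+ cells, Irf1 and Ifi27 were the other way round, 17 were above 0 in both, and Stat2 and Samhd1 were below 0 in both.

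In the between-type table every measured gene was higher in PDGFRα+ DEX than in CD137+ DEX cells. All 36 measured genes were above 0, and 22 of them were 2-fold higher, with none 2-fold lower, where 12.6% of all genes were 2-fold higher and 7.31% lower. The median was 1.38, against 0.02 over all 12907 genes measured. Over all genes the count was 1623 higher and 944 lower, against 1195 higher and 1481 lower as deposited. The authors' deposited table gave a q-value under 0.05 to 14 of 39 genes in the higher direction, where 6.72% of 14679 genes had one, and to none in the lower direction, where 6.51% did.

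**Figure D3:**
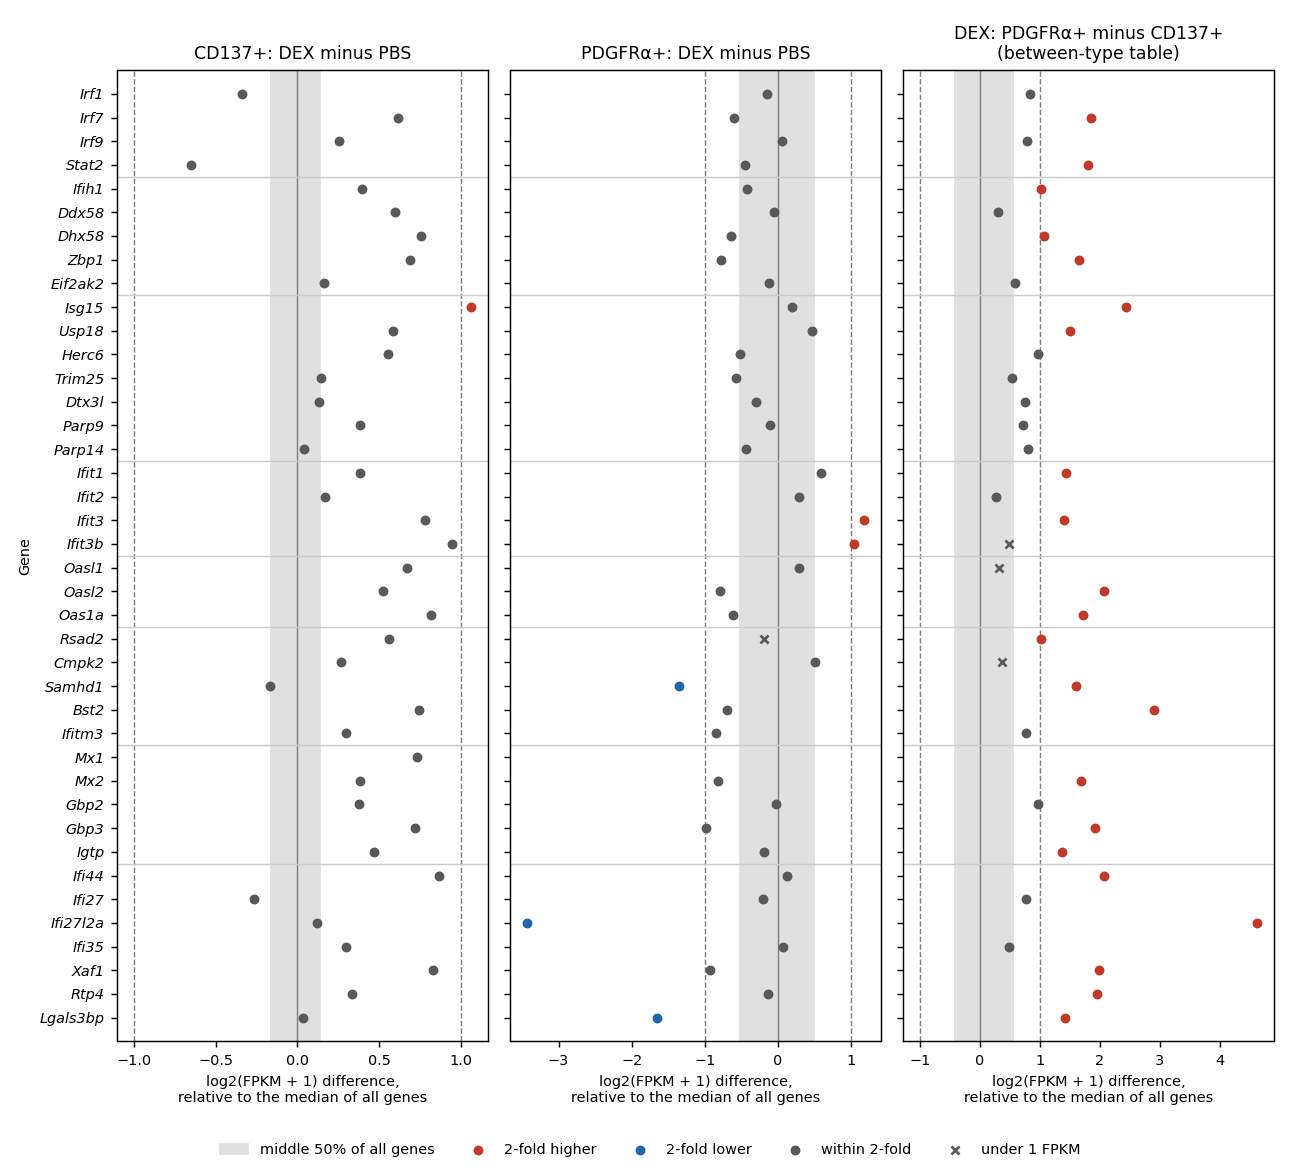
Difference in log2(FPKM + 1) of each gene in the 3 tables, first-named library minus the other, relative to the median of all genes; dashed lines mark 2-fold, the grey band holds the middle 50% of all measured genes, and crosses are genes under 1 FPKM in both libraries. Most points of the CD137+ panel lie between 0 and 1, those of the PDGFRα+ panel lie on both sides of 0, and all points of the between-type panel lie right of 0.

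The order of the cell types turned with the library used. Setting the DEX libraries of the DEX-PBS tables against each other, 33 of 39 genes were 2-fold lower in PDGFRα+ than in CD137+ cells and none was higher (median -2.10), where 7.42% of all genes were lower and 6.66% higher. Between the PBS libraries, 25 of 39 genes were 2-fold lower in PDGFRα+ than in CD137+ cells and none was higher (median -1.23), where 5.4% of all genes were lower and 8.49% higher. In that pair Samhd1 was the 1 gene above 0, at 0.60, and Ifit3 was the lowest, at -3.23.

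The CD137+ comparison turned in the same way. Against the CD137+ PBS library, the between-type CD137+ DEX library had 38 of 39 genes 2-fold lower and none higher (median -2.55), where 7.29% of all genes were lower and 4.76% higher. The exception was Ifit2, at -0.50. Against the PDGFRα+ PBS library, the between-type PDGFRα+ DEX library had none of 36 measured genes 2-fold apart, with 23 above 0 and 13 below (median 0.10), where 0.0562% of all genes were higher and 0.112% lower.

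**Figure D4:**
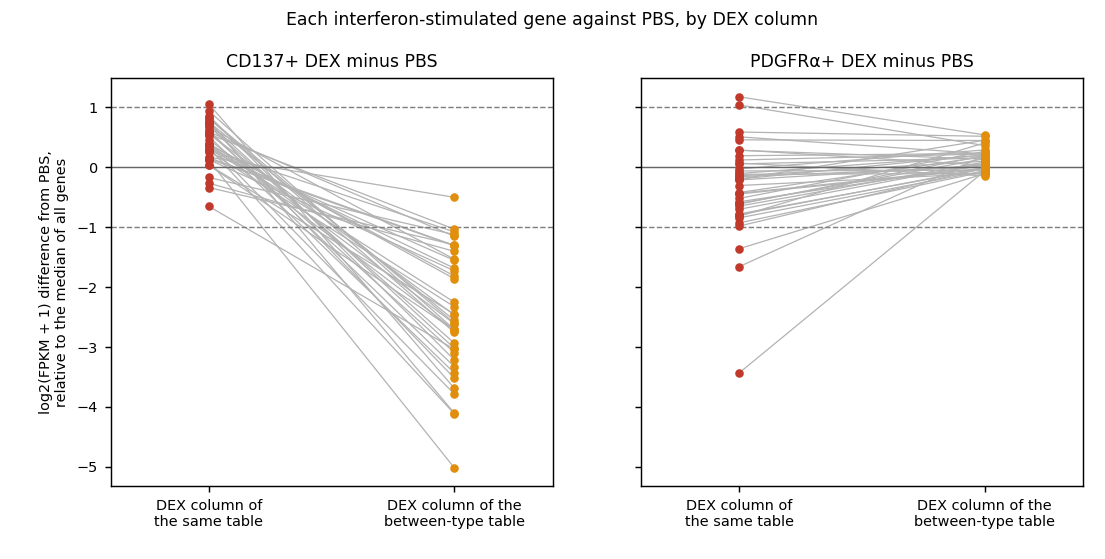
Difference from PBS, in log2(FPKM + 1) relative to the median of all genes, of each gene in CD137+ (left) and PDGFRα+ cells (right); red points use the DEX library of the same table, orange points the DEX library of the between-type table, and a line joins the points of a gene. In CD137+ cells the median is 0.39 for the red and -2.55 for the orange points, and in PDGFRα+ cells the orange points gather around 0.

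Among the transcriptional regulators, Irf7, the factor that amplifies type I interferon production, varied most. Irf7 was at 41.7 FPKM in DEX and 25.9 FPKM in PBS CD137+ cells, at 5.32 FPKM in DEX and 7.12 FPKM in PBS PDGFRα+ cells, and at 8.17 FPKM in PDGFRα+ DEX and 1.94 FPKM in CD137+ DEX cells of the between-type table. The last pair differed by 1.86, and both libraries of the CD137+ table lay above the other 4. Irf9, the DNA-binding subunit of ISGF3, was steadier, at 29.5 FPKM in DEX and 23.7 FPKM in PBS CD137+ cells, 13.9 FPKM in DEX and 11.1 FPKM in PBS PDGFRα+ cells, and 12.8 FPKM in PDGFRα+ DEX and 8.21 FPKM in CD137+ DEX cells of the between-type table. No pair within a table put Irf9 2-fold apart. Stat2, a subunit of ISGF3, was at 24.1 FPKM in DEX and 37.1 FPKM in PBS CD137+ cells, 12.3 FPKM in DEX and 14.3 FPKM in PBS PDGFRα+ cells, and 14.3 FPKM in PDGFRα+ DEX and 4.08 FPKM in CD137+ DEX cells of the between-type table. Its difference in CD137+ cells, -0.65, was the lowest of the 40 genes. Irf1, a factor best known downstream of interferon gamma, was at 10.7 FPKM in DEX and 13.3 FPKM in PBS CD137+ cells, 9.18 FPKM in DEX and 8.59 FPKM in PBS PDGFRα+ cells, and 8.84 FPKM in PDGFRα+ DEX and 5.399 FPKM in CD137+ DEX cells of the between-type table. Irf1 thus varied least of the 4 regulators between libraries.

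All 5 sensors were above 0 in CD137+ cells (median 0.59) and below 0 in PDGFRα+ cells (median -0.42), where the signs of Ddx58 and Eif2ak2 turned without the adjustment. Zbp1, which detects Z-form nucleic acid, was at 46.4 FPKM in DEX and 27.4 FPKM in PBS CD137+ cells, 6.61 FPKM in DEX and 10.04 FPKM in PBS PDGFRα+ cells, and 10.1 FPKM in PDGFRα+ DEX and 3.08 FPKM in CD137+ DEX cells of the between-type table. Dhx58 (LGP2), a regulator of RNA sensing, was at 19.02 FPKM in DEX and 10.4 FPKM in PBS CD137+ cells, 1.68 FPKM in DEX and 2.55 FPKM in PBS PDGFRα+ cells, and 2.86 FPKM in PDGFRα+ DEX and 1.14 FPKM in CD137+ DEX cells of the between-type table. The level of each was highest and lowest in the libraries that share the CD137+ DEX label, and against CD137+ PBS the between-type library was at -2.93 for Zbp1 and -2.55 for Dhx58. The RNA sensors Ddx58 (RIG-I) and Ifih1 (MDA5) were at 41.5 and 14.03 FPKM in CD137+ DEX cells, against 26.2 and 10.04 FPKM in CD137+ PBS cells. Eif2ak2 (PKR), the kinase that stops translation on double-stranded RNA, had the narrowest range of the sensors, between 10.9 and 30.1 FPKM in the 6 libraries. Zbp1, Dhx58 and Ifih1 were 2-fold higher in PDGFRα+ DEX than CD137+ DEX cells of the between-type table, at 1.66, 1.07 and 1.01, while Ddx58 was at 0.30.

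Isg15 encodes a ubiquitin-like modifier that is attached to other proteins. It was at 144 FPKM in DEX and 65.9 FPKM in PBS CD137+ cells, 28.99 FPKM in DEX and 21.2 FPKM in PBS PDGFRα+ cells, and 25.6 FPKM in PDGFRα+ DEX and 4.69 FPKM in CD137+ DEX cells of the between-type table. In CD137+ cells the DEX library was higher by 1.06, and with the between-type DEX library in its place the difference was -3.69. In PDGFRα+ cells the difference was 0.19, and between types it was 2.44. Usp18, the protease that removes ISG15 and damps signalling at Ifnar2, was at 23.4 FPKM in DEX and 14.7 FPKM in PBS CD137+ cells, 4.72 FPKM in DEX and 2.52 FPKM in PBS PDGFRα+ cells, and 3.904 FPKM in PDGFRα+ DEX and 1.02 FPKM in CD137+ DEX cells of the between-type table. The 6 libraries stood in the same order for Usp18 as for Isg15. The ligases were closer together: Herc6, the main ISG15 ligase of the mouse, was at 0.56 in CD137+ cells and -0.52 in PDGFRα+ cells, and Trim25, which acts on RIG-I, at 0.14 and -0.57. Parp9 and Dtx3l, which form a ligase complex, were at 0.38 and 0.13 in CD137+ cells and -0.10 and -0.30 in PDGFRα+ cells, and Parp14, an ADP-ribosyltransferase, at 0.04 and -0.43. Of the 7 genes of this system, Isg15 and Usp18 were the 2 that stood 2-fold higher in PDGFRα+ DEX than CD137+ DEX cells of the between-type table. That was 28.6% of the group, against 61.1% of all measured members and 12.6% of all genes.

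The IFIT genes, whose proteins bind foreign RNA, were the 1 group of the 8 in which every gene was above 0 in PDGFRα+ as well as in CD137+ cells, with medians of 0.82 and 0.58. They lie close together on chromosome 19 (mm10), from Ifit2 at 34550694-34576419 to Ifit1 at 34640871-34650009. Ifit3 was at 71.2 FPKM in DEX and 39.6 FPKM in PBS CD137+ cells, 9.55 FPKM in DEX and 2.94 FPKM in PBS PDGFRα+ cells, and 4.87 FPKM in PDGFRα+ DEX and 1.59 FPKM in CD137+ DEX cells of the between-type table. Ifit1 was at 45.8 FPKM in DEX and 33.6 FPKM in PBS CD137+ cells, 6.796 FPKM in DEX and 3.38 FPKM in PBS PDGFRα+ cells, and 5.41 FPKM in PDGFRα+ DEX and 1.75 FPKM in CD137+ DEX cells of the between-type table. On the adjusted log2(FPKM + 1) scale, Ifit3 was higher by 1.18 and Ifit1 by 0.59 in DEX than PBS PDGFRα+ cells. Ifit3b was at 14.7 FPKM in DEX and 6.89 FPKM in PBS CD137+ cells, and at 1.97 FPKM in DEX and 0.219 FPKM in PBS PDGFRα+ cells. Ifit3 and Ifit3b share 51.2% and 44.5% of their 50-base transcript words with each other, so how their reads were divided is uncertain. With the between-type PDGFRα+ DEX library in place of the other, Ifit3 was at 0.54 against PBS and so within 2-fold, and Ifit3b was under 1 FPKM in both libraries. Ifit2 stood apart from its neighbours, between 5.93 and 10.3 FPKM in all 6 libraries, and was at 0.27 between types.

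OAS enzymes sense double-stranded RNA and make the messenger that activates RNase L, and Oasl1 and Oasl2 are OAS-like genes of the same family. Oasl2 was at 54.7 FPKM in DEX and 36.5 FPKM in PBS CD137+ cells, 8.24 FPKM in DEX and 12.5 FPKM in PBS PDGFRα+ cells, and 12.7 FPKM in PDGFRα+ DEX and 2.81 FPKM in CD137+ DEX cells of the between-type table. Oas1a, a synthetase, was at 18.3 FPKM in DEX and 9.55 FPKM in PBS CD137+ cells, 2.18 FPKM in DEX and 3.12 FPKM in PBS PDGFRα+ cells, and 3.82 FPKM in PDGFRα+ DEX and 0.7104 FPKM in CD137+ DEX cells of the between-type table. Between types their differences were 2.07 for Oasl2 and 1.71 for Oas1a. Oas1a shares 57.6% of its 50-base words with Oas1g, so its share of those reads is uncertain. Oasl1, which in mice restrains Irf7 translation, was lower throughout, at 5.16 FPKM in DEX and 2.73 FPKM in PBS CD137+ cells and at 0.411 to 1.098 FPKM in the other 4 libraries.

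In the between-type table, Bst2 (tetherin, which holds budding virions at the cell surface) had the largest difference among the 5 nucleotide and membrane antiviral factors. That rank did not hold across tables: PDGFRα+ minus CD137+ cells gave -0.15 for Bst2 with the PBS libraries and -1.62 with the DEX libraries of the DEX-PBS tables. Bst2 was at 179 FPKM in DEX and 103 FPKM in PBS CD137+ cells, 60.7 FPKM in DEX and 83.8 FPKM in PBS PDGFRα+ cells, and 89.8 FPKM in PDGFRα+ DEX and 13.02 FPKM in CD137+ DEX cells of the between-type table, the last pair differing by 2.91. Ifitm3, which blocks fusion of viruses in endosomes, was the most abundant of the 40 genes per length in every library. Its level was 954 FPKM in DEX and 751 FPKM in PBS CD137+ cells, 382 FPKM in DEX and 581 FPKM in PBS PDGFRα+ cells, and 570.4 FPKM in PDGFRα+ DEX and 389 FPKM in CD137+ DEX cells of the between-type table. Samhd1, which breaks down deoxynucleotides, was the 1 gene of the 39 with its highest level in PDGFRα+ PBS cells. It was at 56.4 FPKM in DEX and 61.3 FPKM in PBS CD137+ cells and 38.6 FPKM in DEX and 84.8 FPKM in PBS PDGFRα+ cells. Like most of the genes, it was lowest in the between-type CD137+ DEX library, at 30.3 FPKM. Its difference in PDGFRα+ cells, -1.36, became -0.11 with the between-type PDGFRα+ DEX library, which held it at 80.5 FPKM. Rsad2 (viperin) was at 8.95 FPKM in DEX and 5.51 FPKM in PBS CD137+ cells, 0.968 FPKM in DEX and 0.908 FPKM in PBS PDGFRα+ cells, and 1.26 FPKM in PDGFRα+ DEX and 0.291 FPKM in CD137+ DEX cells of the between-type table. Cmpk2, the nucleotide kinase gene next to Rsad2, was at 7.16 FPKM in DEX and 5.54 FPKM in PBS CD137+ cells. In the other 4 libraries it was at 1.25 FPKM or below.

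The GTPases that interferon induces were all above 0 in CD137+ cells (median 0.46) and, where measured, all below 0 in PDGFRα+ cells (median -0.51). Gbp3, a guanylate-binding protein gene, was at 54.4 FPKM in DEX and 31.5 FPKM in PBS CD137+ cells, 4.96 FPKM in DEX and 8.96 FPKM in PBS PDGFRα+ cells, and 9.104 FPKM in PDGFRα+ DEX and 2.104 FPKM in CD137+ DEX cells of the between-type table. Mx2, a dynamin-like antiviral GTPase gene, was at 8.32 FPKM in DEX and 5.91 FPKM in PBS CD137+ cells, 0.577 FPKM in DEX and 1.35 FPKM in PBS PDGFRα+ cells, and 2.19 FPKM in PDGFRα+ DEX and 0.153 FPKM in CD137+ DEX cells of the between-type table. Both had their lowest level in the between-type CD137+ DEX library. Mx1, which carries a disabling deletion in most laboratory strains, was listed in the CD137+ table alone, at 4.46 FPKM in DEX and 2.17 FPKM in PBS cells. Gbp2 and Igtp, the gene of an immunity-related GTPase, were at 0.37 and 0.46 in CD137+ cells, and at -0.03 and -0.19 in PDGFRα+ cells, where their sign turned without the adjustment.

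The widest range of the 40 genes belonged to Ifi27l2a, a small gene of the ISG12 family on chromosome 12 at 103442167-103443680. Ifi27l2a was at 49.3 FPKM in DEX and 43.7 FPKM in PBS CD137+ cells, 2.59 FPKM in DEX and 31.8 FPKM in PBS PDGFRα+ cells, and 31.1 FPKM in PDGFRα+ DEX and 0.512 FPKM in CD137+ DEX cells of the between-type table. It was thus at 31.1 FPKM or more in 4 libraries, and low in the PDGFRα+ DEX library of its own table and in the between-type CD137+ DEX library. Its neighbour Ifi27 was even by comparison, between 72.96 and 178 FPKM in all 6 libraries. Rtp4, a receptor-transporting protein gene, was at 48.4 FPKM in DEX and 36.9 FPKM in PBS CD137+ cells, 6.78 FPKM in DEX and 6.26 FPKM in PBS PDGFRα+ cells, and 6.96 FPKM in PDGFRα+ DEX and 1.397 FPKM in CD137+ DEX cells of the between-type table. Lgals3bp, which encodes a secreted galectin-binding glycoprotein, was at 561 FPKM in DEX and 529 FPKM in PBS CD137+ cells and at 64.1 FPKM in DEX and 173 FPKM in PBS PDGFRα+ cells. Its difference in PDGFRα+ cells was -1.66, against 0.20 with the between-type DEX library. Ifi44 was at 23.5 FPKM in DEX and 12.02 FPKM in PBS CD137+ cells and at 5.02 FPKM in DEX and 3.68 FPKM in PBS PDGFRα+ cells, so both tables had it higher under DEX. Xaf1, an antagonist of the apoptosis inhibitor XIAP, was at 36.3 FPKM in DEX and 19.3 FPKM in PBS CD137+ cells but at 7.02 FPKM in DEX and 11.9 FPKM in PBS PDGFRα+ cells. Ifi35 differed little between DEX and PBS of the same table, at 0.30 in CD137+ and 0.07 in PDGFRα+ cells. Over the 6 libraries its level went from 8.83 FPKM in between-type CD137+ DEX to 35.7 FPKM in CD137+ DEX cells of the CD137+ table.

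The 15 genes with an ISRE match in the window and the 15 with a window but no match were set side by side. A gene without a match lacks the searched letters in its window, and may still have an ISRE that differs from them or lies elsewhere. In CD137+ cells the medians were 0.56 with a match (15 genes) and 0.27 without (15 genes). In PDGFRα+ cells they were -0.16 with (14 genes) and -0.30 without (15 genes), and between types 1.38 with (14 genes) and 0.96 without (13 genes). Against CD137+ PBS cells, the between-type CD137+ DEX library gave -2.71 with and -1.68 without a match. The groups overlapped in each comparison: in CD137+ cells the genes with a match ranged from -0.65 to 1.06 and those without from -0.34 to 0.86.

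Upstream of these genes, none of 11 interferon genes looked up, Ifnb1 and Ifng among them, appeared in any table. Other interferon genes were not looked up. The receptor subunit Ifnar1 was even, between 21.9 and 26.5 FPKM in all 6 libraries. Its partner Ifnar2 was at 41.5 FPKM in DEX and 36.8 FPKM in PBS CD137+ cells, 27.9 FPKM in DEX and 121 FPKM in PBS PDGFRα+ cells, and 128 FPKM in PDGFRα+ DEX and 25.2 FPKM in CD137+ DEX cells of the between-type table. Of 11 receptor and JAK-STAT genes, none of 10 measured was 2-fold apart in CD137+ cells, where 0.407% of all genes were higher and 0.659% lower. In PDGFRα+ cells Ifnar2 alone was lower among 11, where 11.7% of all genes were lower and 9.38% higher. Between types, Ifnar2 and Il10rb were higher and Jak1 lower in PDGFRα+ DEX cells among 10 measured, where 12.6% of all genes were higher and 7.31% lower. Jak1 was at 43.9 FPKM in PDGFRα+ DEX and 115 FPKM in CD137+ DEX cells.

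Of 16 adaptors and kinases that carry the signal from the sensors, none of 12 measured was 2-fold apart in CD137+ cells, and in PDGFRα+ cells the kinase gene Ikbke (-1.50) and Irf8 (-1.02) were lower among 14. The same genes were the 2 of 14 higher in PDGFRα+ DEX than CD137+ DEX cells of the between-type table, at 1.04 and 1.69. Of 11 negative regulators of the response, none was apart in CD137+ cells, Nlrx1 (-1.03) and Irf2 (-1.01) were lower in PDGFRα+ cells, and Pias1 (1.03) was higher between types. Over all genes, 0.407% were higher and 0.659% lower in CD137+ cells, 11.7% were lower in PDGFRα+ cells and 12.6% higher between types.

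A second list of 50 interferon-stimulated genes outside the 40, also chosen with earlier results of these data known, was read in the same libraries. In CD137+ cells, 41 of 47 measured were above 0 (median 0.39) and none was 2-fold apart, where 0.407% of all genes were higher and 0.659% lower. In PDGFRα+ cells 3 of 40 were 2-fold higher and 17 lower (median -0.76), where 9.38% of all genes were higher and 11.7% lower. Between types 23 of 41 were higher and 1 lower (median 1.11), where 12.6% of all genes were higher and 7.31% lower. The most distant was Ifitm1, a membrane antiviral factor gene near Ifitm3, at 5.83 FPKM in DEX and 90.7 FPKM in PBS PDGFRα+ cells and at 122 FPKM in PDGFRα+ DEX and 0.634 FPKM in CD137+ DEX cells of the between-type table. In CD137+ cells Ifitm1 was at 8.66 FPKM in DEX and 13.5 FPKM in PBS cells. Isg20, an RNA exonuclease gene, was at 7.49 FPKM in DEX and 58.6 FPKM in PBS PDGFRα+ cells. The 3 higher genes there were Cxcl10, a chemokine gene (4.57 FPKM in DEX and 0.495 FPKM in PBS cells), Irgm1 (27.6 FPKM in DEX and 8.06 FPKM in PBS cells) and Slfn9 (7.17 FPKM in DEX and 1.62 FPKM in PBS cells), which are named after their values were seen. Genes of MHC class I presentation, which interferon gamma drives strongly, had none of 10 apart in CD137+ cells (median 0.17), 6 of 9 lower in PDGFRα+ cells (median -1.16, where 11.7% of all genes were lower) and 5 of 9 higher between types (median 1.09, where 12.6% were higher). H2-K1, an MHC class I heavy chain gene, was at 70.2 FPKM in DEX and 190.2 FPKM in PBS PDGFRα+ cells.

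Other gene lists moved between the same libraries, and their part in the values above was not tested. Adipocyte markers summed to 2481 FPKM in DEX and 3176 FPKM in PBS CD137+ cells, 195 FPKM in DEX and 1006 FPKM in PBS PDGFRα+ cells, and 1079 FPKM in PDGFRα+ DEX and 325 FPKM in CD137+ DEX cells of the between-type table. Adipose progenitor markers were listed in every table. Their list holds Pdgfra but not Tnfrsf9, so it cannot check CD137+ against PDGFRα+ cells. These markers summed to 2448 FPKM in DEX and 2181 FPKM in PBS CD137+ cells, 571 FPKM in DEX and 1682 FPKM in PBS PDGFRα+ cells, and 2031 FPKM in PDGFRα+ DEX and 708 FPKM in CD137+ DEX cells of the between-type table. Cell division genes summed to 217 FPKM in DEX and 133 FPKM in PBS CD137+ cells, 280.03 FPKM in DEX and 65.8 FPKM in PBS PDGFRα+ cells, and 64.96 FPKM in PDGFRα+ DEX and 371 FPKM in CD137+ DEX cells of the between-type table. In the PDGFRα+ and between-type tables the library with the higher adipocyte sum thus had the lower cell division sum and the higher interferon-stimulated sum. In the CD137+ table DEX cells had the higher interferon-stimulated and cell division sums and the lower adipocyte sum. Mesothelial markers summed to 78.2 to 94.8 FPKM in the 3 PDGFRα+ libraries and to 4.37 to 17.1 FPKM in the 3 CD137+ libraries. All 6 markers were listed in the PDGFRα+ table, but Krt19 was the 1 listed in the CD137+ table. The sums there, 5.44 FPKM in DEX and 4.37 FPKM in PBS cells, are thus of that gene alone. Endothelial markers summed to 18.9 FPKM in DEX and 37.05 FPKM in PBS CD137+ cells and to 35.1 to 38.8 FPKM in the other 4 libraries.

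Blood cell markers were nearly missing. Macrophage markers summed to 7.91 to 12.5 FPKM in the 6 libraries, and 6 of the 12, Adgre1, C1qb, Itgam, Mrc1, Laptm5 and Fcer1g, were listed in no table. The CD137+ table listed 3 of the 12, and the PDGFRα+ and between-type tables listed 5 each, so the sums do not all cover the same genes. None of 10 lymphocyte markers was listed, and of 8 dendritic cell markers Zbtb46 alone was, at 1.598 to 3.79 FPKM. Genes under a low bound are not in the tables, so a gene not listed may still have had reads.

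**Figure D5:**
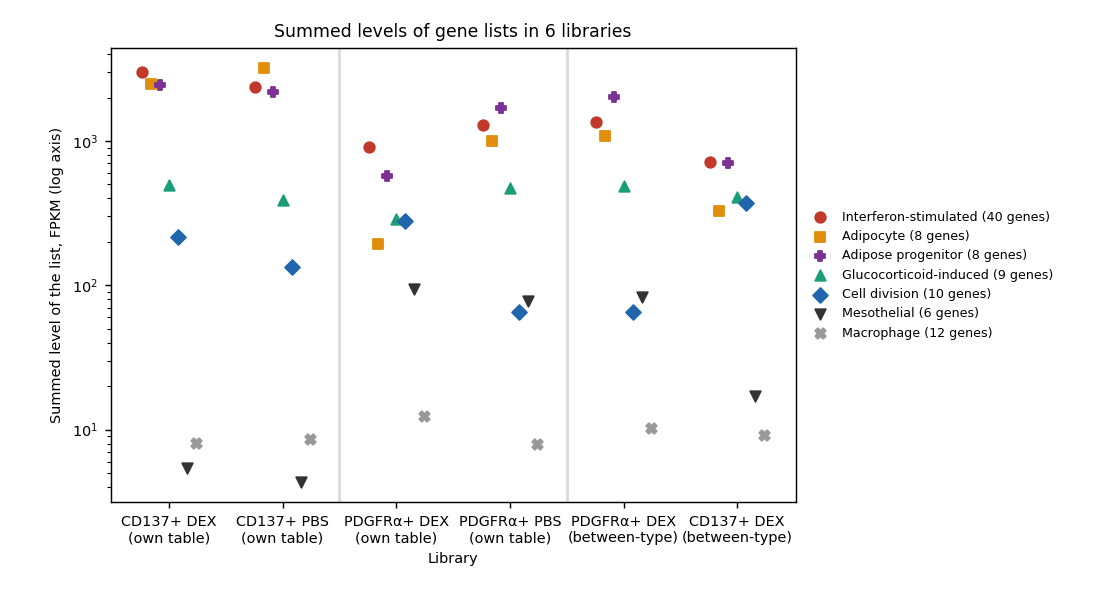
Summed FPKM, on a log axis, of the 40 interferon-stimulated genes and of marker lists in the 6 libraries; points are set apart sideways for legibility and grey lines divide the tables. The interferon-stimulated sum spans 716 to 3006 FPKM. The macrophage sum, over 3 listed genes in the CD137+ table and 5 in each of the others, spans 7.91 to 12.5 FPKM.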

How the data were processed

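Per the labels' protocols, Trizol RNA went into Illumina TruSeq libraries. The submitters' processing notes list Cufflinks, Cuffdiff and mm10, with no versions; the sources used here do not give an aligner or an annotation. Each of the 3 deposited tables has 2 FPKM columns and the authors' q-value for every gene, per the file headers; replicates behind a column are not stated, and the sheet titles number libraries of 1 label differently. The q-values are quoted as the authors' own. FPKM scales each library by its total (430997 to 449283 summed FPKM here), so a few abundant transcripts can lower all others, and the depth of the libraries is unknown, so no counting interval is given. The higher value of a gene was never below 0.386 FPKM.

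Columns were mapped to samples by name. Differences were taken on log2(FPKM + 1) and centred on the median of genes reaching 1 FPKM in each of the paired libraries, with a 2-fold size rule, in Python 3.11.15 with numpy 2.4.6 and pandas 2.3.3; the rule was tested on simulated data. Alternatives were pseudocounts of 0.1 and 5 FPKM, no minimum, a minimum of 10 FPKM, no centring, a 1.5-fold rule and exchange of the DEX columns. Genes were placed on GRCm38 with GENCODE M21, and 50-base words of its transcripts were compared between genes. Of the 40 genes, 8 shared more than 5% of their words with another gene (Oas1a, Ifit3, Ifit3b, Herc6, Igtp, Rtp4, Ifitm3 and Ifit1), and 15 overlapped an exon of another gene, none over 20% of its bases; counting is not stated to use strand. RefSeq promoter windows were not found for Dhx58, Zbp1, Usp18, Parp9, Parp14, Mx1, Mx2, Ifi27, Ifi27l2a and Rtp4.

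The members and lists were chosen with earlier results of these data known. Values in all 6 libraries are given for Irf9, Stat2, Irf7, Irf1, Isg15, Usp18, Bst2 and Ifitm3, and for the 2 genes of each role group with the largest range; of other lists, up to 4 genes with the largest difference are named, with Ifnar1, Ifnar2, Ifnb1, Nr3c1, Tsc22d3, Fkbp5, Pdgfra and Tnfrsf9 whatever their values. Fkbp5, a glucocorticoid target, was at 66.2 FPKM in DEX and 68.1 FPKM in PBS CD137+ cells, 35.8 FPKM in DEX and 64.7 FPKM in PBS PDGFRα+ cells, and 73.8 FPKM in PDGFRα+ DEX and 47.7 FPKM in CD137+ DEX cells of the between-type table. A further gene of the naming rule is not reported here.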

Additional observations from a re-analysis of the deposited data

Results flagged for a closer look

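The median difference of the 40 genes between DEX and PBS lay on opposite sides of 0 in the cell types: 0.389 in CD137+ cells and -0.257 in PDGFRα+ cells, relative to the median of all genes. Each value rests on 1 column per condition, and the difference between the cell types was not tested. With the DEX libraries of the between-type table in their place, the medians were -2.55 in CD137+ cells and 0.095 in PDGFRα+ cells. As deposited, without the adjustment, the PDGFRα+ median was -0.015. Of the 38 genes measured in both tables, 23 were above 0 in CD137+ cells and below 0 in PDGFRα+ cells with the adjustment and none the other way round; as deposited these counts were 17 and 2.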

How the results depend on the processing

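No paired analysis was possible because the labels give 1 sample per group. With the DEX columns exchanged between tables, the CD137+ DEX minus PBS median was -2.55 with 0 genes higher and 38 lower (4.76% and 7.29% of all genes), the PDGFRα+ median was 0.095 with 0 higher and 0 lower (0.0562% and 0.112%), and the between-type median was -2.10 with 0 higher and 33 lower (6.66% and 7.42%); the cause was not tested. Among the genes called by the 2-fold rule, Isg15 turned sign in CD137+ cells (-3.69) and Lgals3bp in PDGFRα+ cells (0.20). Between types all 22 higher genes did: Bst2 -1.62, Dhx58 -2.98, Gbp3 -3.29, Ifi27l2a -3.88, Ifi44 -2.10, Ifih1 -1.84, Ifit1 -2.66, Ifit3 -2.85, Igtp -2.36, Irf7 -2.83, Isg15 -2.35, Lgals3bp -3.19, Mx2 -2.64, Oas1a -2.68, Oasl2 -2.67, Rsad2 -2.41, Rtp4 -2.74, Samhd1 -0.61, Stat2 -0.996, Usp18 -2.17, Xaf1 -2.29 and Zbp1 -2.71. Genes within 2-fold turned as well: after the exchange 0 of 39 genes lay above 0 in CD137+ cells, and 0 of 39 between types. In PDGFRα+ cells 23 of 36 then lay above 0. In PDGFRα+ cells the median was -0.17 with a pseudocount of 5 FPKM, -0.51 with a minimum of 10 FPKM (18 genes) and -0.015 without centring. There 0 genes were higher with the pseudocount of 5 FPKM (4.24% of all genes) and 0 with the minimum of 10 FPKM (10.98%), and 6 were lower with a pseudocount of 0.1 FPKM (15.4%). In CD137+ cells 2 genes were higher with a pseudocount of 0.1 FPKM (1.195% of all genes). With the 1.5-fold rule, 14 genes were higher and 1 lower in CD137+ cells (2.45% and 3.15% of all genes) and 13 lower in PDGFRα+ cells (22.6%). Between types the median was 0.71 and 12 genes were higher with a pseudocount of 5 FPKM (5.602% of all genes), and 9 of 18 were higher with the minimum of 10 FPKM (11.3%). Of the 22 genes, 3 were no longer 2-fold apart without centring and 10 with the pseudocount of 5 FPKM. In PDGFRα+ cells 2 of the 5 called genes were within 2-fold with the pseudocount of 5 FPKM. FPKM low in a library rest on few reads, and the depth behind them is unknown.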
